A study of Mus musculus with 4 samples.

Results

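The comparison described here is that of ligated with sham-operated inferior vena cava in Cd39-null mice, gene by gene. It is the difference between 2 of the 4 arrays of the study, the array labelled Cd39-null, ligated, minus the array of Cd39-null sham. All 18820 genes that had a probe set with exactly 1 gene symbol entered, each through the probe set that was brightest on average over the 4 arrays, and the 14115 whose mean over the 4 arrays reached the 25th percentile (2.29) were kept for counting. Values are log2 expression values of the Robust Multi-array Average procedure (RMA), so a difference of 1 is a 2-fold difference.

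Both Cd39-null pools and both wild-type pools came from mice of 8 to 10 weeks that had been crossed to C57BL/6J for at least 8 generations. Ligated mice had the vein tied below the kidneys and its branches closed, and their vein was taken after 48 h. Sham-operated mice had the vein dissected free but not tied. RNA of 4 mice was pooled on each array, so each group is 1 value per gene, no spread between mice can be seen, and the differences below carry no test and no p-value. The labels leave unstated the sex of the pooled mice, whether ligation was complete or partial, and whether clot was left in the piece from which RNA was taken. They name no cell type to which the loss of Cd39 was restricted.

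Background on the array was taken from 1006 olfactory receptor probe sets. Their 95th percentile was 2.97 for Cd39-null sham, 2.68 for the ligated counterpart, 2.94 for wild-type sham and 2.66 for wild-type ligated vein, and a value under that limit is called under background. Where a gene was under background on 1 of the Cd39-null arrays, a fold is given as at least the bright value over the background limit of the dim array. Log2 differences and counts use the measured values without this bound. Some genes counted as 2-fold apart thus have a bounded fold under 2, such as Nlrp3 (1.98), Il11 (1.98), Tnfsf10 (1.98) and Slc2a4 (1.38). Some bright genes of the vein wall were above background on both Cd39-null arrays. The endothelial cadherin Cdh5 was at 7.28 in sham and 8.05 on the array labelled ligated. The endothelial adhesion molecule Pecam1 was at 7.52 and 7.53, and the smooth muscle actin Acta2 at 8.84 and 8.34. Many other wall genes were low in Cd39-null sham. There, 21 of 30 smooth muscle contractile and 11 of 32 pan-endothelial genes were at least 2-fold below wild-type sham, beside 3.54% of all kept genes.

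CD39, the product of Entpd1, sits on the surface of endothelial cells, leukocytes and platelets and strips phosphates from extracellular ATP and ADP, and the enzyme CD73 then turns the AMP into adenosine. ADP recruits platelets through the receptors P2ry1 and P2ry12, and ATP activates inflammatory cells. Stopping the flow in a large vein provokes a clot of fibrin, platelets, red cells and leukocytes, in which neutrophils arrive early and monocytes follow, before smooth muscle and fibroblasts rebuild the wall.

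The targeted gene was low on the Cd39-null sham array but not on the array labelled Cd39-null, ligated. Entpd1 was at 4.16 on the Cd39-null sham array and at 6.14 on its ligated counterpart, beside 7.11 in wild-type sham and 6.17 in wild-type ligated vein. It was thus low on the sham array alone, and at the wild-type ligated level on the other Cd39-null array. The position of its probe set relative to the deletion is not known here, so the Entpd1 level does not settle the genotype of that array. Every direction below rests on the label of that array, for which reason it is named by that label throughout, in short as the array labelled ligated.

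The Cd39-null pair was far apart. Of the 14115 genes, 2355 (16.7%) differed at least 2-fold, 1537 (10.9%) higher on the array labelled ligated and 818 (5.8%) lower, and the median difference over all genes was 0.03. Of the genes that differed, 65.3% were higher as deposited, but 51.4% after quantile normalisation and 53.9% after cyclic loess, so the balance between higher and lower genes depends on the scaling. The wild-type pair, which shares no array with it, had 1444 genes (10.2%) at least 2-fold apart, of which 932 (6.6%) were higher after ligation and 512 (3.63%) lower. Past 8-fold the Cd39-null pair had 84 genes higher and 40 lower, against 5 and 8 in the wild-type pair. The standard deviation of the difference over genes was 0.84 in the Cd39-null pair and 0.63 in the wild-type pair.

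A minority of these genes were under background on the dimmer array, but a larger part of those furthest apart. Of the higher genes, 194 of 1537 were under background in Cd39-null sham, and 189 of the 818 lower genes were under background on the array labelled ligated. Past 8-fold these counts were 27 of 84 higher and 18 of 40 lower genes, and past 32-fold 4 of 4 and 6 of 8. The share that differed at least 2-fold was 4.25% in the dimmest of 5 equal groups of genes and 25.6% in the brightest. Of the 1537 higher genes, 512 (33.3%) were also at least 2-fold higher after ligation in wild type, which is 54.9% of the wild-type list. Of the 818 lower genes, 204 (24.9%) were also lower in wild type, or 39.8% of that list. Only 25 genes were at least 2-fold higher in the Cd39-null pair and at least 2-fold lower in the wild-type pair, and 13 were the reverse.

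**Figure D1:**
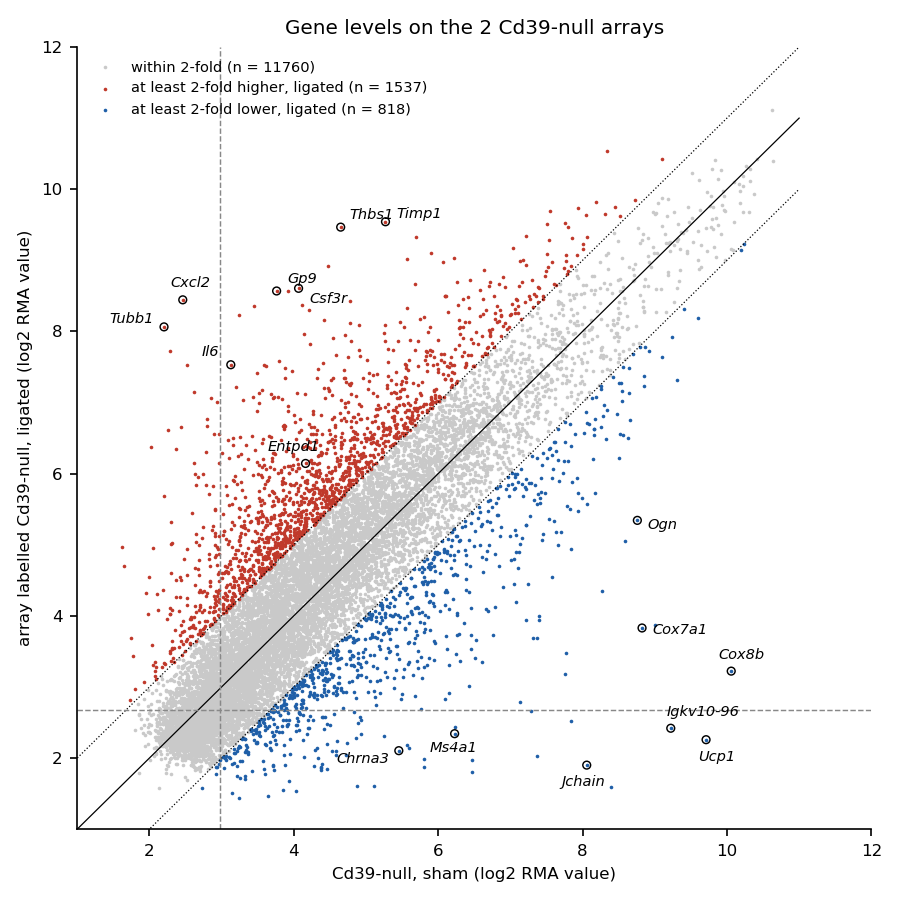
Log2 RMA value of each of the 14115 kept genes for Cd39-null sham (horizontal) and for the array labelled ligated (vertical). Red points are the 1537 genes at least 2-fold higher and blue points the 818 at least 2-fold lower on the array labelled ligated, dotted lines mark 2-fold, and dashed lines mark the background limits of 2.97 and 2.68; Cxcl2 and Tubb1 lie far above the diagonal and Ucp1, Cox8b and Jchain far below it.

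A difference in this pair can come from either array, so most lists are also given against wild-type sham. That second difference uses the same array labelled ligated and is no independent support; in it, 2273 genes (16.1%) were at least 2-fold apart, 1344 (9.52%) higher and 929 (6.58%) lower. Cd39-null sham itself differed at least 2-fold from wild-type sham at 915 genes (6.48%), 416 (2.95%) higher and 499 (3.54%) lower. Of the 1537 higher genes, 964 were also at least 2-fold above wild-type sham, and 573 were not. Among the 818 lower genes, 401 were also at least 2-fold below wild-type sham, whereas 417 were not. In bulk tissue, fewer cells of a type and less RNA per cell cannot be told apart. Gene lists are described by how many kept members were at least 2-fold apart and by their median. They are to be read against 10.9% higher, 5.8% lower and a median of 0.03 over all genes. That yardstick depends on brightness. In the dimmest of 5 equal groups of genes, 1.28% were higher and 2.98% lower, with a median of -0.19. In the brightest, 18.1% were higher and 7.51% lower, with a median of 0.23.

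Neutrophil-attracting chemokines and the cytokine Il6 were among the higher genes, and Cxcl2 had the largest measured difference on the higher side. They are known targets of nuclear factor kappa B, and the promoters of Cxcl1, Cxcl2, Cxcl3 and Il6 hold matches to a kappa B consensus shortly before their annotated starts. The 150 bases upstream of each are shown, with matches to the consensus on either strand in capitals, because these genes were higher together; sequences and coordinates are RefSeq's for GRCm38.p6, all on the plus strand, at chr5:90891095-90891244 (Cxcl1), chr5:90903749-90903898 (Cxcl2), chr5:90785951-90786100 (Cxcl3) and chr5:30012964-30013113 (Il6).
Cxcl1: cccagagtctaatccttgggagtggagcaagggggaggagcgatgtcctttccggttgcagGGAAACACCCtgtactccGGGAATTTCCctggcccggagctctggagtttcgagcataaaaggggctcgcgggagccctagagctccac
Cxcl2: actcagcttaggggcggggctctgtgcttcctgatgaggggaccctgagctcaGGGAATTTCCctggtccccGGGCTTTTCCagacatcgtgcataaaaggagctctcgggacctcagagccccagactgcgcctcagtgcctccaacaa
Cxcl3: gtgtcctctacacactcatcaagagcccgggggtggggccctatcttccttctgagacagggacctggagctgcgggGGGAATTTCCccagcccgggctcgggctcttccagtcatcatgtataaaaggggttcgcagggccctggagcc
Il6: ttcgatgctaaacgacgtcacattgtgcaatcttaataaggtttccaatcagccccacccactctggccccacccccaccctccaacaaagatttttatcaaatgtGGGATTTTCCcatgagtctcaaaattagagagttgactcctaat

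Measured from the start, the matches begin 89 and 71 bases upstream in Cxcl1, 97 and 78 in Cxcl2, 73 in Cxcl3 and 44 in Il6. The identical run GGGAATTTCC occurs in Cxcl1, Cxcl2 and Cxcl3, whereas Il6 has GGGATTTTCC. Among the 11182 kept genes with a RefSeq promoter of 250 bases, 150 (1.34%) held the kappa B consensus on either strand, as did 9 of 257 (3.50%) of those at least 4-fold higher on the array labelled ligated and 1 of 116 (0.862%) of those at least 4-fold lower. Besides Cxcl2, Cxcl3 and Il6, the 9 were Cd9, Ccl9, Bcat1, C3ar1, Fcgr3 and Cmtm7, named after their values were seen. The letters of the AP-1 motif, TGANTCA, were in 519 (4.64%) of all these promoters, in 29 (11.3%) of the 4-fold higher and in 7 (6.03%) of the 4-fold lower genes. Of 7 motifs searched, the ETS letters CCGGAAG were in 11.8% of all promoters, in 18 of 257 higher and in 3 of 116 lower genes. The remaining motifs were ACGTG, of the hypoxia response (20.5% of all, 16.7% of higher, 14.7% of lower), TGACNNNGC, of the antioxidant response (11.8%, 14.4% and 12.9%), AGATAA, of GATA factors (6.54% of all, 18 of 257 higher and 13 of 116 lower), and the direct repeat bound by fatty acid receptors, found in 3 of the 11182 promoters and in none of the higher or lower genes. A match in these letters is a description and shows no binding.

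Cxcl2, the murine neutrophil attractant of the macrophage inflammatory protein family, was at 2.46 in Cd39-null sham, 8.44 on the array labelled ligated, 5.17 in wild-type sham and 6.09 in wild-type ligated vein. It was the lowest of the 4 in Cd39-null sham, under background, and the highest on the array labelled ligated, at least 44.4-fold above its sham. Cxcl3 was at 3.50 and 6.88 on the Cd39-null arrays, with 3.62 and 3.75 in wild-type sham and ligated vein, so 3 arrays were alike and 1 was 10.5-fold higher than its own sham. Il6, the cytokine of the acute phase, was at 3.13 and 7.53 on the Cd39-null arrays and at 2.60 and 4.28 on the wild-type arrays. Ligated vein was the higher one in both genotypes for Il6, by 4.40 in the Cd39-null pair and 1.69 in the wild-type pair. Cxcl1 differed less, with 4.93 and 6.44 on the Cd39-null arrays and 4.76 and 4.87 on the wild-type arrays. Cxcl5, another ligand of the receptor Cxcr2, went from under background (2.03) to 6.37 in the Cd39-null pair, at least 10.5-fold, and from 2.74 to 5.20 in wild type.

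Of 20 kept CXC chemokines and receptors, 10 were at least 2-fold higher and 4 lower, with a median of 0.64 (0.39 against wild-type sham). The lower ones were ligands or receptors of lymphocytes and of the endothelium. Cxcl9, an interferon-induced T cell attractant, was lower by 1.95, the B cell attractant Cxcl13 by 1.47, its receptor Cxcr5 by 1.69 and the scavenging receptor Ackr3 by 1.40. Among 24 CC and other chemokines and receptors, 10 were higher and 3 lower, with a median of 0.39 (also 0.39 against wild-type sham). The median was 0.10 with no filter on dim genes. Ccl3, which draws monocytes and neutrophils through Ccr1, was under background in Cd39-null sham (2.29) but at 7.72 on the array labelled ligated, at least 26.9-fold higher, and it was at 2.78 and 6.23 in wild-type sham and ligated vein. Its receptor Ccr1 was at 3.73 and 7.08 on the Cd39-null arrays and 3.65 and 4.61 on the wild-type arrays. The monocyte attractants Ccl2 and Ccl7 differed by 3.20 and 2.76, and by 2.91 and 3.79 in wild type. Ccl8, a monocyte attractant too, ran the other way, with 6.26 and 4.01 on the Cd39-null arrays against 4.63 and 7.25 in wild type, and so was lowest exactly where Ccl2 was highest.

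Interleukin-1 and TNF family genes were higher as lists. Of 19 interleukin-1 family and inflammasome genes, 13 were at least 2-fold higher and 1 lower, with a median of 1.66 (0.41 in wild type, 1.35 against wild-type sham). Il1b, the secreted form that activates endothelium, was at 4.78 and 8.12 on the Cd39-null arrays and at 4.60 and 6.02 on the wild-type arrays. The decoy receptor Il1r2 was at 3.59 and 7.52, while both wild-type arrays were near the sham value (3.99 and 3.95). The antagonist Il1rn differed by 2.26 and the sensor Nlrp3 by 1.38, from under background to 3.96. Casp1, which cuts pro-interleukin-1, was the member that was lower, by 1.43. Of 25 TNF superfamily and kappa B feedback genes, 13 were higher and 1 lower, with a median of 1.00 (1.07 against wild-type sham, but 0.76 after either scaling). The hyaluronan-binding Tnfaip6 differed by 2.44, Tnf by 1.61 and the inhibitor Nfkbia by 1.00, whereas Tnfaip3 (0.51) and Nfkb2 (0.70) were within 2-fold and the death ligand Tnfsf10 was lower by 1.52. In the interleukin-6 family, 6 of 12 were higher, with a median of 0.96 (1.11 against wild-type sham), among them Il11, Lif, Osm and the feedback inhibitor Socs3 (1.72, 1.62, 1.51 and 1.42), and the receptor Lifr was lower by 2.39. The prostaglandin synthase Ptgs2 was at 4.71 and 7.95 on the Cd39-null arrays and at 4.85 and 5.48 on the wild-type arrays.

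Platelet receptors had the highest median of the 79 lists. Of 19 kept adhesion and activation receptors of platelets, 15 were at least 2-fold higher and 0 lower, with a median of 2.91. The wild-type pair had a median of -0.48 for the same genes, and against wild-type sham the median was 2.26. The median level of the list was 3.61 in Cd39-null sham, 6.65 on the array labelled ligated, 4.40 in wild-type sham and 3.40 in wild-type ligated vein, so 3 arrays were low and 1 was high. A second list of 25 platelet granule, cytoskeletal and signalling genes had 17 members higher and 0 lower, with medians of 1.79 in the Cd39-null pair, -0.05 in the wild-type pair and 1.04 against wild-type sham.

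Tubb1, the beta tubulin of platelets and megakaryocytes, was at 2.20 in Cd39-null sham, 8.06 on the array labelled ligated, 4.02 in wild-type sham and 2.76 in wild-type ligated vein. Only the array labelled ligated was high, at least 34.1-fold above Cd39-null sham. Gp9, a subunit of the von Willebrand factor receptor, was at 3.76 and 8.57 on the Cd39-null arrays and at 4.32 and 3.24 on the wild-type arrays. Another part of that receptor, Gp5, was at 3.30 and 7.03, and at 4.76 and 2.74 in wild type. For both, ligated vein was the highest array in one genotype and the lowest of all in the other. The fibrinogen receptor chains Itga2b and Itgb3 differed by 4.22 and 3.91, the former from under background and at least 12.8-fold. The podoplanin receptor Clec1b was at 3.91 and 8.56 on the Cd39-null arrays but at 6.11 and 3.90 on the wild-type arrays, and its ligand Pdpn was at 4.92 and 7.66, and at 5.63 and 6.89. Alox12, the platelet lipoxygenase, was at 3.24 and 8.23 on the Cd39-null arrays and at 4.79 and 3.47 on the wild-type arrays.

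Chemokines stored in platelet granules were also present in wild-type vein. Ppbp, the precursor of a neutrophil attractant, was at 5.69 and 9.33 on the Cd39-null arrays and at 8.79 and 7.35 on the wild-type arrays, so Cd39-null sham was the low array. Pf4 was at 7.03 and 9.18, and at 7.96 and 8.45. Against wild-type sham, Ppbp was 0.54 higher and Pf4 1.22 higher on the array labelled ligated. The members within 2-fold included receptors shared with other cells, the thromboxane receptor Tbxa2r (-0.52), the prostacyclin receptor Ptgir (0.34) and the ADP receptor P2ry1 (-0.56), while P2ry12 (3.14) was higher. Among 12 megakaryocyte transcription factors and receptors, 2 were higher and 1 lower, with a median of 0.16. Those 2 were Nfe2, a factor of platelet release, which was under background in Cd39-null sham (2.59) but at 5.45 on the array labelled ligated, and Runx1, at 4.70 and 6.79. Gfi1b (0.11), Tal1 (0.05) and Zfpm1 (0.15) stood close to their sham values. Red cell genes held 1 of 11 members at least 2-fold higher, the heme synthesis enzyme Alas2, at 4.96 and 7.34 in the Cd39-null pair and 5.45 and 4.86 in the wild-type pair. Whether platelets of a clot or of blood in the piece account for these values was not tested.

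Coagulation factors were found on both sides. F5, the cofactor of factor Xa, was under background in Cd39-null sham (2.52) but at 7.53 on the array labelled ligated, at least 23.6-fold higher, with 3.48 and 2.72 in wild type. F10 was 3.49 higher in the Cd39-null pair and was at 4.16 and 4.58 in wild type. F5 is also stored in platelets and F10 is made by inflammatory macrophages. Tissue factor, F3, was lower, at 6.04 and 4.79, with 5.63 and 5.72 in wild type, and F8, made by endothelium, was lower in both genotypes, by 1.98 and 2.06. In the whole list of 20, 7 were higher and 2 lower, with a median of 0.45 (0.29 against wild-type sham). The endothelial anticoagulants Thbd (0.48) and Tfpi (0.42) were within 2-fold, and the protein C receptor Procr was higher by 1.03. Of 11 plasminogen activators, receptors and inhibitors, 7 were higher and 0 lower, with a median of 1.29 (1.18 against wild-type sham). Urokinase, Plau, was at 3.67 and 6.09 on the Cd39-null arrays and 4.00 and 6.09 on the wild-type arrays, so ligated veins of both labels reached the same level, and its receptor Plaur was at 3.82 and 6.03, and at 3.59 and 4.38.

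Neutrophil surface receptors were higher almost throughout. Of 20 kept, 18 were at least 2-fold higher and 0 lower, with a median of 2.56 (0.67 in wild type, 2.66 against wild-type sham). Csf3r, the receptor for granulocyte colony stimulating factor, was at 4.07 in Cd39-null sham, 8.61 on the array labelled ligated, 3.69 in wild-type sham and 5.52 in wild-type ligated vein. Both sham arrays were low, wild-type ligated vein was intermediate and the array labelled ligated was highest. Trem1, which amplifies the neutrophil and monocyte response, was under background on the other 3 arrays (2.26, 2.59 and 1.96) and at 6.61 on the array labelled ligated. The chemokine receptor Cxcr2 was at 6.11 and 8.50, and at 4.42 and 6.09 in wild type. The niacin receptor Hcar2 was at 2.90 and 6.56, with 2.94 and 2.87 in wild type, and the lectin Clec4e at 3.88 and 7.35, with 3.64 and 4.59.

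Granule genes differed by class. Of 18 specific and gelatinase granule genes, which neutrophils make after the azurophil ones, 12 were higher and 1 lower, with a median of 1.40, and against wild-type sham 12 were higher and 0 lower. The gelatinase Mmp9 was at 2.85 and 7.06 on the Cd39-null arrays, at least 17.0-fold higher, and the collagenase Mmp8 at 4.91 and 6.99, with 3.28 and 3.17 in wild type. The cathelicidin gene Camp, by contrast, was at 3.92 and 2.64 and Ltf, lactoferrin, at 3.02 and 2.35. Of 6 kept azurophil granule genes, which are made by precursors in the marrow, 1 was higher, Lyz2 (1.80), which macrophages also make. Mpo, Prtn3 and Elane were under or near background on both Cd39-null arrays, with 2.80 the highest sham value and 2.88 the highest value on the array labelled ligated. S100a8 and S100a9, the calprotectin subunits, were at 10.22 and 9.84 for Cd39-null sham, against 10.05 and 10.41 on the array labelled ligated, within 2-fold. Cd39-null sham was thus already high for these, above wild-type sham (9.30 and 8.76). The oxidase subunits Ncf1, Ncf4 and Cyba were higher by 2.96, 2.60 and 2.31, and the vascular oxidase Nox4 was lower by 1.91.

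Monocyte and inflammatory macrophage genes were separate from resident macrophage genes. Of 24 monocyte and inflammatory macrophage genes, 21 were at least 2-fold higher and 0 lower, with a median of 2.71 (1.11 in wild type, 2.57 against wild-type sham). Arg1, which uses up arginine, was at 4.48 and 8.93 on the Cd39-null arrays and 4.50 and 6.83 on the wild-type arrays. Nos2, the inducible nitric oxide synthase that competes for the same substrate, was under background in Cd39-null sham (2.64) but at 5.99 on the array labelled ligated, with 2.68 and 2.50 in wild type. Both arginine enzymes were highest on the array labelled ligated, but only Arg1 was also higher after ligation in wild type. The scavenger receptor Msr1 was at 3.80 and 7.58, and at 3.94 and 6.64. Thrombospondin, Thbs1, made by platelets and monocytes, was at 4.65 and 9.47, and at 7.11 and 8.00, so Cd39-null sham was the low array. Members close to their sham value were Plac8 (-0.07) and Ms4a4c (-0.20).

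Among 31 resident macrophage genes, 5 were higher and 3 lower in the Cd39-null pair, with a median of 0.04 (-0.16 after quantile normalisation and -0.13 after cyclic loess, and 0.25 against wild-type sham). The wild-type pair had 17 higher and 1 lower, with a median of 1.11. Mrc1, the mannose receptor, was at 6.35 and 6.72 on the Cd39-null arrays and 5.96 and 8.07 on the wild-type arrays. Adgre1, a macrophage adhesion receptor, was at 5.37 and 5.83, and at 5.12 and 7.12. For both, only wild-type ligated vein stood out. The complement subunits C1qa and C1qb differed by 0.55 and 0.47, and by 1.91 and 1.70 in wild type, and the sialic acid receptor Siglec1 by 1.02 and 2.89. Retnla, a product of alternatively activated macrophages, was lower in both pairs, at 7.37 and 3.69 and at 7.21 and 3.86. Of 23 class II and dendritic cell genes, 3 were higher and 9 lower in the Cd39-null pair, and 5 higher and 1 lower in wild type, with medians of -0.62 and 0.21 (-0.59 against wild-type sham). Among them, the invariant chain Cd74 was at 7.41 and 5.66 in the Cd39-null pair and 6.47 and 8.11 in the wild-type pair, and H2-Aa at 8.14 and 6.21, and at 7.21 and 8.26. The B cell genes described further on, which share class II genes with macrophages, were high on the Cd39-null sham array, and their part in this was not tested.

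**Figure D2:**
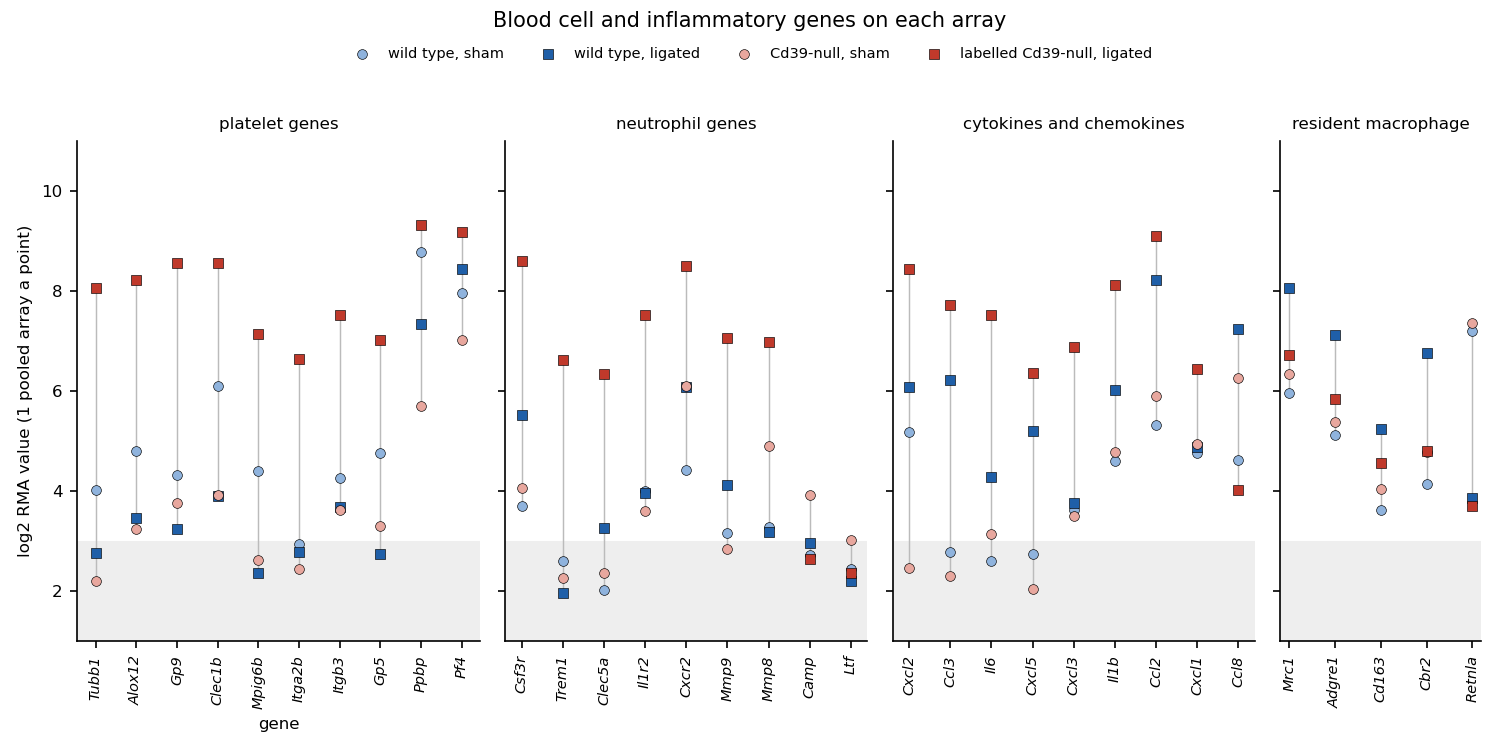
Log2 RMA value of platelet, neutrophil, cytokine and resident macrophage genes on each of the 4 arrays (1 pooled array a point, sham as circles, ligated as squares). The grey band is below the background limit of Cd39-null sham, 2.97; the array labelled Cd39-null, ligated is highest for Tubb1, Gp9, Csf3r, Trem1 and Cxcl2, and wild-type ligated vein for Mrc1, Adgre1 and Ccl8.

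Glycolysis and hypoxia genes were higher on the array labelled ligated, while their wild-type counterparts differed little. Of 24 glycolysis enzymes and transporters, 13 were at least 2-fold higher and 3 lower, with a median of 1.15 (0.41 in wild type, 1.56 against wild-type sham). The high-affinity glucose transporter Slc2a3, carried by neutrophils and platelets, was at 3.16 and 6.40 on the Cd39-null arrays and at 3.46 and 3.01 on the wild-type arrays. The lactate exporter Slc16a3 was under background in Cd39-null sham (2.75) but at 5.99 on the array labelled ligated, at least 8.13-fold higher. Isoforms of other tissues were lower instead, the fat and muscle transporter Slc2a4 by 1.22, the neuronal enolase Eno2 by 1.33 and Ldhb by 1.72, and Gapdh was level (-0.04). Of 28 hypoxia response genes, 14 were higher and 0 lower, with a median of 0.99 in the Cd39-null pair and -0.10 in the wild-type pair; against wild-type sham 10 were higher and 1 lower, with a median of 0.80. Ero1a, an oxidase of the endoplasmic reticulum, was at 5.26 and 8.09, with 5.02 and 5.28 in wild type. The oxygen sensor Egln3 was at 4.22 and 6.69, with 4.32 and 3.69. Both were high on the array labelled ligated alone. Hif1a was 1.46 higher and its endothelial relative Epas1 0.64 lower, while Vegfa (0.82), Adm (0.17) and Car9 (-0.25, under background on both arrays) were within 2-fold.

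Genes that handle heme and oxidants were higher in part. Heme oxygenase, Hmox1, was at 5.57 and 9.02 on the Cd39-null arrays and at 6.37 and 8.40 on the wild-type arrays, so ligated veins were high in both. In the list of 23 heme and iron genes, 12 were higher and 1 lower, with a median of 1.15 (0.64 in wild type, 0.93 against wild-type sham). That median was 0.73 with no filter on dim genes and 0.75 with a floor at background. The lower gene was ceruloplasmin, Cp (-1.48, and -1.45 in wild type). Among 34 glutathione, thioredoxin and NRF2 target genes, 8 were higher and 2 lower, with a median of 0.36 (0.48 against wild-type sham). The cystine transporter Slc7a11 was under background on the other 3 arrays and at 4.71 on the array labelled ligated, and the glutathione reductase Gsr was at 4.75 and 7.64. The conjugating enzymes Gsta3 and Gsta4 were lower by 2.06 and 2.57. The quinone reductase Nqo1 was under background on both Cd39-null arrays.

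The enzymes next to CD39 in the pathway were not alike. Of 17 genes of the CD39 family and of nucleotide and adenosine metabolism, 4 were higher, Entpd1 among them, and 1 lower, with a median of 0.14 that turned to -0.01 and -0.03 under the scalings. Nt5e, which encodes CD73, was at 4.08 in Cd39-null sham, 6.77 on the array labelled ligated, 3.54 in wild-type sham and 3.81 in wild-type ligated vein. It was high on 1 array of the 4, and 6.44-fold above its sham. The tissue phosphatase Alpl was at 3.75 and 4.88, and Entpd3 at 3.18 and 4.27. Ada, which inactivates adenosine, was 0.56 lower, whereas it was 1.42 higher after ligation in wild type, and Dpp4, which anchors it on the human cell surface, was 1.28 lower. Of 10 P2 receptors that passed the filter on dim genes, 6 were higher and 0 lower, with a median of 1.21 (0.95 against wild-type sham). That median rests on the filter, and was -0.0020 over all receptors measured. The platelet ADP receptor P2ry12 was at 4.33 and 7.47, and at 4.93 and 5.64 in wild type. The macrophage UDP receptor P2ry6 was at 4.57 and 6.69, and at 5.18 and 6.84, so both ligated arrays were high. The ATP channel P2rx7 was level in the Cd39-null pair (4.89 and 5.06) and higher after ligation in wild type (4.19 and 5.89).

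Brown fat genes had the largest single differences on the lower side. Ucp1, the uncoupling protein of brown adipocytes, was at 9.71 in Cd39-null sham, 2.26 on the array labelled ligated, 4.14 in wild-type sham and 2.03 in wild-type ligated vein. Cox8b, the cytochrome oxidase subunit of muscle and brown fat, was at 10.06 and 3.22, and at 6.45 and 3.43. Fabp3, a fatty acid carrier, was at 7.13 and 2.79, and at 3.01 and 3.00. The Cd39-null sham array was thus far above the other 3 for each. Ucp1 was at least 131-fold lower on the array labelled ligated than in Cd39-null sham, and the differences of Cox8b and Fabp3 were -6.84 and -4.34. Against wild-type sham, the log2 differences were -1.88 for Ucp1, -3.23 for Cox8b and -0.22 for Fabp3. Of 29 brown fat thermogenic genes, 14 were lower and 0 higher. Their median was -0.91 in the Cd39-null pair and -0.51 against wild-type sham, and their median level was 4.53 in Cd39-null sham, 2.91 on the array labelled ligated, 3.24 in wild-type sham and 2.86 in wild-type ligated vein. In Cd39-null sham, 13 of the 29 were at least 2-fold above wild-type sham. The factor Prdm16, which sets the identity of brown adipocytes, was nearly the same on all arrays, at 3.94, 3.81, 4.12 and 3.95.

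White adipocyte genes followed at a smaller scale. Of 40, 23 were lower and 2 higher, with a median of -1.09, against 0.01 in wild type and -0.36 against wild-type sham. Adiponectin, Adipoq, was at 8.66 and 6.75 on the Cd39-null arrays and at 7.62 and 7.50 on the wild-type arrays. Leptin, Lep, was at 6.36 and 3.90, and at 3.88 and 4.07, so Cd39-null sham alone was high. The lipogenic genes Fasn and Thrsp were lower by 2.87 and 4.29, and were also 1.21 and 2.84 below wild-type sham. The 2 members that were higher were the lipid droplet coat Plin2, at 6.81 and 8.36, and at 5.64 and 7.52 in wild type, and Mest (1.11). Plin2 also coats droplets in macrophages. Median levels of the list were 6.39 in Cd39-null sham, 5.16 on the array labelled ligated, 5.52 in wild-type sham and 5.42 in wild-type ligated vein. The amount of perivascular fat in each piece was not tested.

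Mitochondrial genes split by pathway. Of 22 fatty acid oxidation genes, 12 were lower and 0 higher, with a median of -1.24, but of 0.18 in wild type and -0.13 against wild-type sham. The acyl-CoA dehydrogenase Acadl was at 8.17 and 5.73 on the Cd39-null arrays and at 6.06 and 6.27 on the wild-type arrays, and the dienoyl reductase Decr1 at 7.94 and 5.47, and at 5.71 and 5.96. For both, 3 arrays were alike and Cd39-null sham was the high one. Of 22 tricarboxylic acid cycle genes, 12 were lower and 0 higher, with medians of -1.07, 0.16 and 0.07 in the same order. Among the respiratory complexes, 11 of 35 complex I subunits were lower, 4 of 13 of complexes II and III, and 3 of 15 of complex IV. Medians were -0.66, -0.17 and -0.67 in that order, and -0.13, 0.14 and -0.27 against wild-type sham. For complex IV, the lower ones were the heart and muscle type subunits Cox8b and Cox7a1 and the general subunit Cox6a1 (-1.01). Other general subunits ranged from Cox5a (-0.98), Cox5b (-0.95) and Cox7b (-0.86) to Cox8a (-0.26) and Cox4i1 (0.11). ATP synthase subunits and carriers had 2 of 22 higher and 0 lower, the higher ones being the c-ring genes Atp5g1 (1.48) and Atp5g2 (1.30), with 1.62 and 1.77 in wild type. Pdk4, which closes the entry of glucose carbon into the cycle, was at 7.57 and 4.55, and at 6.08 and 4.42.

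B cell genes were lower as a list and had been high in Cd39-null sham. Of 24, 19 were at least 2-fold lower and 0 higher, with a median of -1.72, against -0.32 in wild type and -0.44 against wild-type sham. Ms4a1, which encodes CD20, was at 6.23 in Cd39-null sham, 2.34 on the array labelled ligated, 4.24 in wild-type sham and 2.33 in wild-type ligated vein. It was high on both sham arrays, and under background on both ligated ones. The B cell receptor partner Cd79b was at 6.26 and 4.05, and at 4.23 and 4.07, and the adaptor Bank1 at 6.31 and 3.37, and at 4.04 and 3.20, so for these Cd39-null sham alone was high. Median levels of the list were 5.36 in Cd39-null sham, 3.33 on the array labelled ligated, 3.89 in wild-type sham and 3.12 in wild-type ligated vein. The factor Ebf1, which fat and wall cells also use, was at 6.41 and 5.42, and at 6.90 and 6.36.

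Antibody genes stood apart more than the B cell list. Jchain, which joins IgA and IgM units, was at 8.06 in Cd39-null sham and at 1.90, 1.91 and 1.53 on the array labelled ligated and in wild-type sham and ligated vein, under background on all 3. All 16 kept immunoglobulin segments, named after their values were seen, were above background in Cd39-null sham, with a median of 6.87 and a range of 2.99 to 9.22. On the array labelled ligated their median was 2.47 and 10 were under background; in both wild-type pools 12 were, with medians of 2.59 and 2.32. Igha, the IgA heavy chain, was at 8.27 and 4.35 on the Cd39-null arrays and at 3.46 and 3.47 on the wild-type arrays, and the kappa constant gene Igkc at 7.84 and 2.52, and at 2.93 and 2.57. In the Cd39-null pair 15 of the 16 were at least 2-fold lower on the array labelled ligated, against 1 in wild type. The filter on dim genes kept 16 of 19 segments by their mean over the 4 arrays, Cd39-null sham included. A segment bright in Cd39-null sham alone could thus be kept, while one dim on every array was left out. The counts above background in Cd39-null sham and lower on the array labelled ligated are therefore partly built in. Kappa variable segments resemble each other, so a value may mix several of them. The node marker Glycam1, a mucin of high endothelial venules, was at 6.61 and 3.35, with 3.71 and 3.50 in wild type. T cell genes differed less, with 5 of 25 lower, 1 higher and a median of -0.54 (0.15 against wild-type sham). All 13 NK and cytotoxic genes were below 0 and 3 of them at least 2-fold lower. However, 9 of the 13 were under background on the array labelled ligated and 4 in Cd39-null sham. Their median was -0.80, and -0.50 with a floor at background, so the shared sign partly reflects dim values. Whether lymphoid tissue or fat with lymphocytes was part of the Cd39-null sham pool was not tested.

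**Figure D3:**
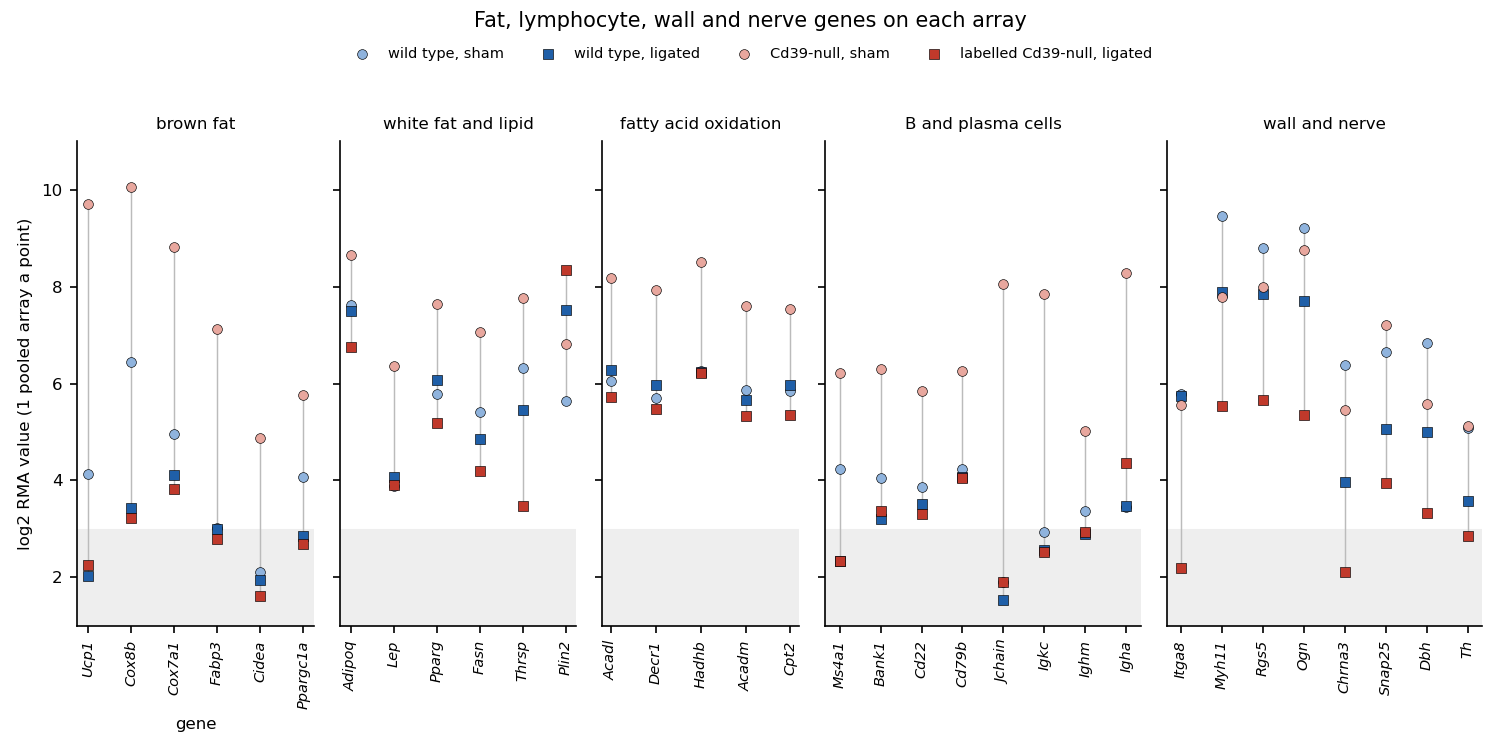
Log2 RMA value of fat, fatty acid oxidation, B and plasma cell, wall and nerve genes on each of the 4 arrays (1 pooled array a point, sham as circles, ligated as squares). The grey band is below the background limit of Cd39-null sham, 2.97; Cd39-null sham is far above the other arrays for Ucp1, Fabp3, Jchain and Igkc, while Itga8 is low on the array labelled Cd39-null, ligated alone and Chrna3 is low on both ligated arrays.

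Wall genes were compared in a sham pool that was itself lower in muscle and endothelial genes. Of 30 smooth muscle contractile genes, 6 were higher and 8 lower in the Cd39-null pair, with a median of -0.15. Against wild-type sham, 16 were lower and 0 higher, with a median of -1.22, and the median of Cd39-null sham minus wild-type sham was -1.19. Myh11, the myosin of differentiated smooth muscle, was at 7.79 and 5.54 on the Cd39-null arrays and at 9.46 and 7.89 on the wild-type arrays, lower after ligation in both genotypes. Itga8, an integrin of smooth muscle, was at 5.56 in Cd39-null sham, 2.18 on the array labelled ligated, 5.78 in wild-type sham and 5.74 in wild-type ligated vein, so that 3 arrays were alike and 1 was under background. The 6 that were higher included filamin Flna (1.64), the light chain Myl9 (1.38) and vinculin Vcl (1.26), which platelets also have, and smoothelin, Smtn (1.20), of contractile smooth muscle. Among 18 mural and pericyte genes, 3 were higher and 5 lower, with medians of -0.49 and, against wild-type sham, -0.59, and with the pericyte gene Rgs5 at 8.00 and 5.65, and at 8.81 and 7.84.

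Endothelial identity was level in the Cd39-null pair. Of 32 genes, 2 were higher and 4 lower, with a median of 0.01, whereas the wild-type pair had 0 higher and 12 lower, with a median of -0.54. The kinase receptors Tek and Kdr were at 4.90 and 4.77, and at 3.60 and 3.30, on the Cd39-null arrays, and at 6.14 and 4.44, and 4.91 and 3.47, on the wild-type arrays. Both wild-type sham values stood above the other 3 arrays. Against wild-type sham, the array labelled ligated had a median of -0.57 over the list. Ptprb, the phosphatase that restrains Tek, was lower in both genotypes, by 1.64 and 1.84. Angpt2, the Tek ligand released by activated endothelium, was at 4.26 and 6.56 on the Cd39-null arrays and at 6.39 and 5.27 on the wild-type arrays. P-selectin, Selp, stored by both endothelium and platelets, was at 5.41 and 6.53, and at 4.68 and 5.27. The flow-sensitive factors Klf2 (-0.66) and Klf4 (-0.74) and the synthase Nos3 (-0.65) were within 2-fold, and the adhesion molecules Icam1 (-0.55), Sele (-0.54) and Vcam1 (0.04) too.

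Matrix genes were divided between fibrillar collagens and small proteoglycans. Of 27 fibrillar and associated collagen chains and their modifying enzymes, 12 were higher and 1 lower, with a median of 0.89 (1.22 in wild type). Col1a1 was at 4.76 and 5.99 on the Cd39-null arrays and at 5.34 and 7.61 on the wild-type arrays, and Col3a1 at 5.02 and 7.19, and at 6.47 and 7.98. The Cd39-null arrays were the lower ones in both surgeries, and against wild-type sham only 2 of the 27 genes were at least 2-fold higher. The crosslinking enzyme Lox was at 5.72 and 7.87, and at 7.03 and 8.42. Small leucine-rich proteoglycans and fibroblast genes were lower in 8 of 22 cases and higher in 1, with a median of -0.58 (-0.22 in wild type, -0.81 against wild-type sham). Osteoglycin, Ogn, was at 8.76 and 5.34, and at 9.21 and 7.70, and Podn, Prelp and Aspn were lower by 1.96, 1.84 and 1.77. The single higher member was Cthrc1, made in injured vessels, at 3.38 and 5.55, and at 5.68 and 7.50. Of 22 elastic fibre and provisional matrix genes, 9 were higher and 4 lower, with a median of 0.72, and against wild-type sham 6 were higher and 6 lower. Tenascin, Tnc, was at 3.98 and 7.44, and the hyaluronan synthase Has2 was under background in sham (2.31) and at 5.02 on the array labelled ligated. The lower members were vitronectin, Vtn (-1.56), and the fibulins Fbln5 (-1.45), Fbln1 (-1.36) and Efemp1 (-1.16).

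Timp1, the inhibitor of matrix metalloproteinases, differed by a like amount in both genotypes, at 5.27 and 9.54, and at 5.28 and 9.45. Over 26 metalloproteinases and inhibitors, 11 were higher and 3 lower, with a median of 0.36 (0.17 against wild-type sham), the lower ones being the inhibitors Timp4 (-1.76) and Reck (-1.65) and the enzyme Mmp23 (-1.01). Among TGF-beta, activin and CCN genes, 9 of 21 were higher and 3 lower, with a median of 0.99. Against wild-type sham 6 were higher and 5 lower, with a median of 0.08, and Cd39-null sham itself had a median of -0.72 against wild-type sham. The activin chain Inhba was at 3.71 and 7.06, and at 4.43 and 5.15 in wild type, and Tgfb1, which platelets and macrophages release, at 4.24 and 6.65, and at 5.00 and 5.83.

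Mitosis genes were higher in 12 of 28 cases and lower in 0, with a median of 0.86, and in 26 of 28 in wild type, with a median of 1.83. Against wild-type sham, 21 were higher, with a median of 1.41. Mki67 was at 5.83 and 5.67 on the Cd39-null arrays and at 3.67 and 6.26 on the wild-type arrays, and the checkpoint kinase Bub1 at 4.20 and 4.21, and at 2.11 and 4.98. Only wild-type sham was low for both. Others, such as the spindle genes Tpx2 (1.96) and Prc1 (2.06), were higher in the Cd39-null pair as well, with 2.33 and 2.03 in wild type. Ribosome biogenesis genes had 10 of 36 higher and 0 lower, with a median of 0.66 (0.67 against wild-type sham).

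Autonomic nerve genes were lower after ligation in both genotypes. Of 25, 13 were at least 2-fold lower and 0 higher in the Cd39-null pair, with a median of -1.13, and 16 were lower in the wild-type pair, with a median of -1.39. Against wild-type sham 17 were lower, with a median of -1.83. Th, which makes the precursor of noradrenaline, was at 5.12 and 2.85 on the Cd39-null arrays and at 5.08 and 3.57 on the wild-type arrays, and Dbh, the next vesicle enzyme, at 5.58 and 3.32, and at 6.85 and 5.00. The ganglionic receptor subunit Chrna3 was at 5.45 and 2.10, and at 6.39 and 3.97. In each case both ligated arrays were below both sham arrays. The vesicle fusion gene Snap25 was at 7.21 and 3.94, and at 6.64 and 5.06. Schwann cell and nerve sheath genes had 6 of 19 lower and 1 higher, the latter being Egr2 (1.59), which macrophages also express, and a median of -0.65 (-0.89 against wild-type sham).

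Detoxifying enzymes were also lower. Of 24 flavin monooxygenase and xenobiotic metabolism genes, 9 were lower and 0 higher, with a median of -0.74 (-0.41 in wild type, -0.76 against wild-type sham). The monooxygenases Fmo1 and Fmo2 were at 8.59 and 5.05, and at 7.31 and 3.68, on the Cd39-null arrays, and at 8.36 and 7.15, and 7.72 and 5.97, on the wild-type arrays. Sham arrays were above ligated arrays for both, and the array labelled ligated was the lowest. Interferon-induced genes had 1 of 30 higher and 3 lower, with a median of -0.28 (0.02 against wild-type sham), and the lower ones, Ifit1, Ifit3 and Ifit3b, differed by -1.55, -2.61 and -3.50, and by -1.59, -2.07 and -2.24 in wild type. Ifit3 and Ifit3b are near-identical copies, so their values may share signal.

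**Figure D4:**
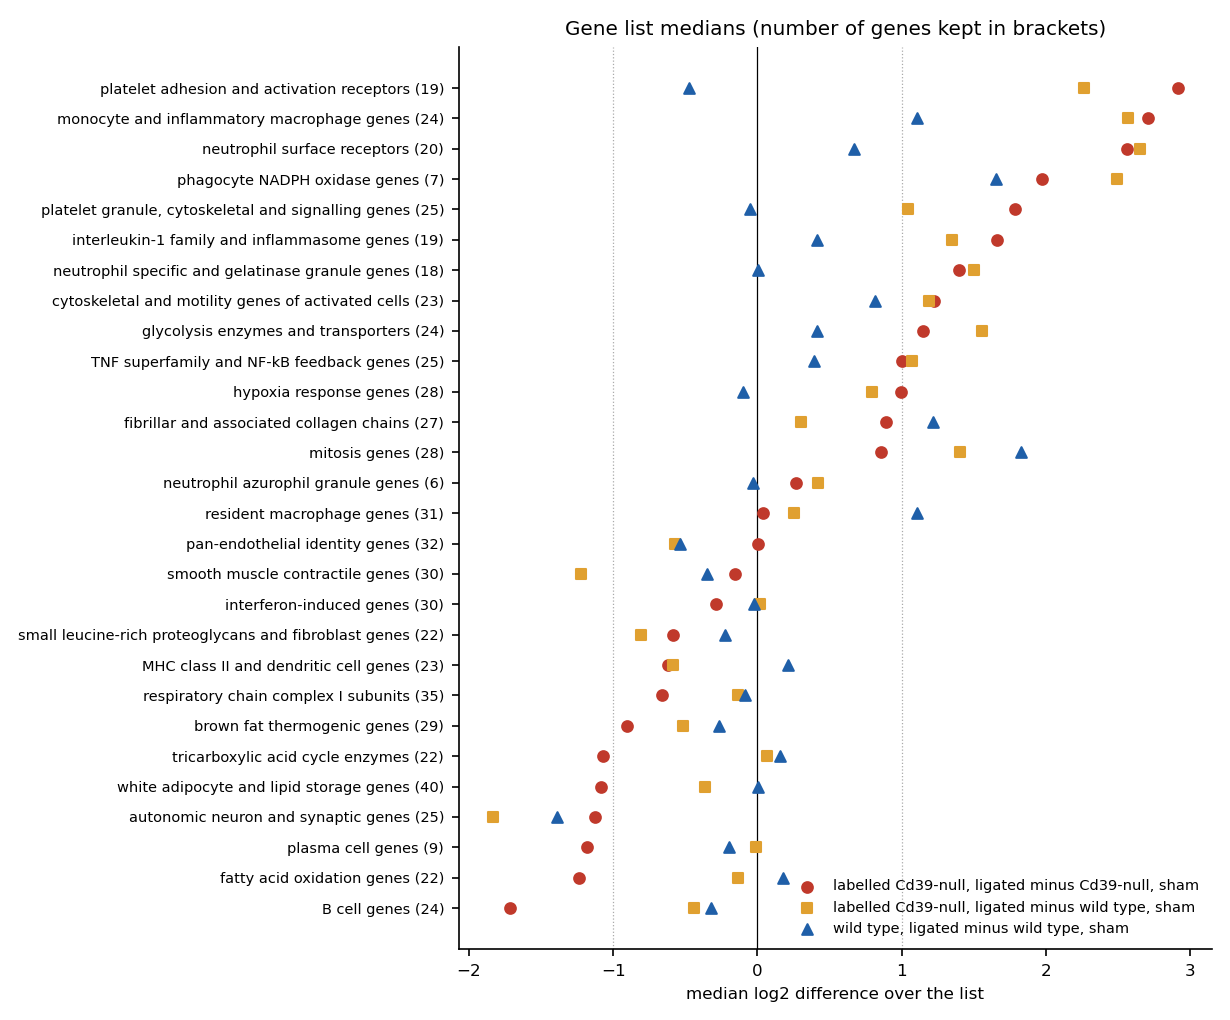
Median log2 difference over 28 gene lists for the Cd39-null pair (circles), for the array labelled Cd39-null, ligated minus wild-type sham (squares) and for the wild-type pair (triangles), with the number of kept genes in brackets; circles and squares share the array labelled ligated. Platelet receptors reach 2.91 in the Cd39-null pair and -0.48 in the wild-type pair, while B cell genes are at -1.72 against Cd39-null sham and -0.44 against wild-type sham.

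Beside the wild-type pair, genes fell into several kinds. Some were apart in both genotypes, such as Timp1 (4.27 and 4.16), Retnla (-3.67 and -3.35) and Ccl2 (3.20 and 2.91). Others were apart in the Cd39-null pair alone, such as Cxcl3 (3.39 and 0.13), Il1r2 (3.93 and -0.04) and Itga8 (-3.38 and -0.04), and a few ran in opposite directions, such as Clec1b (4.65 and -2.21) and Ccl8 (-2.25 and 2.62). Still others were apart in wild type alone, such as Mrc1 (0.37 and 2.11). With 1 pooled array a group, none of these differences between the pairs was tested. Of the 30 highest genes of the Cd39-null pair, whose differences ran from 3.78 to 5.98, 12 were at least 2-fold higher and 5 at least 2-fold lower in wild type, and all 30 were at least 2-fold above wild-type sham. Of the 30 lowest, from -7.45 to -3.02, 17 were at least 2-fold lower in wild type and 22 at least 2-fold below wild-type sham. Both counts against wild-type sham reuse the array labelled ligated, on which the ranking also rests, so high counts are partly built in.

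**Figure D5:**
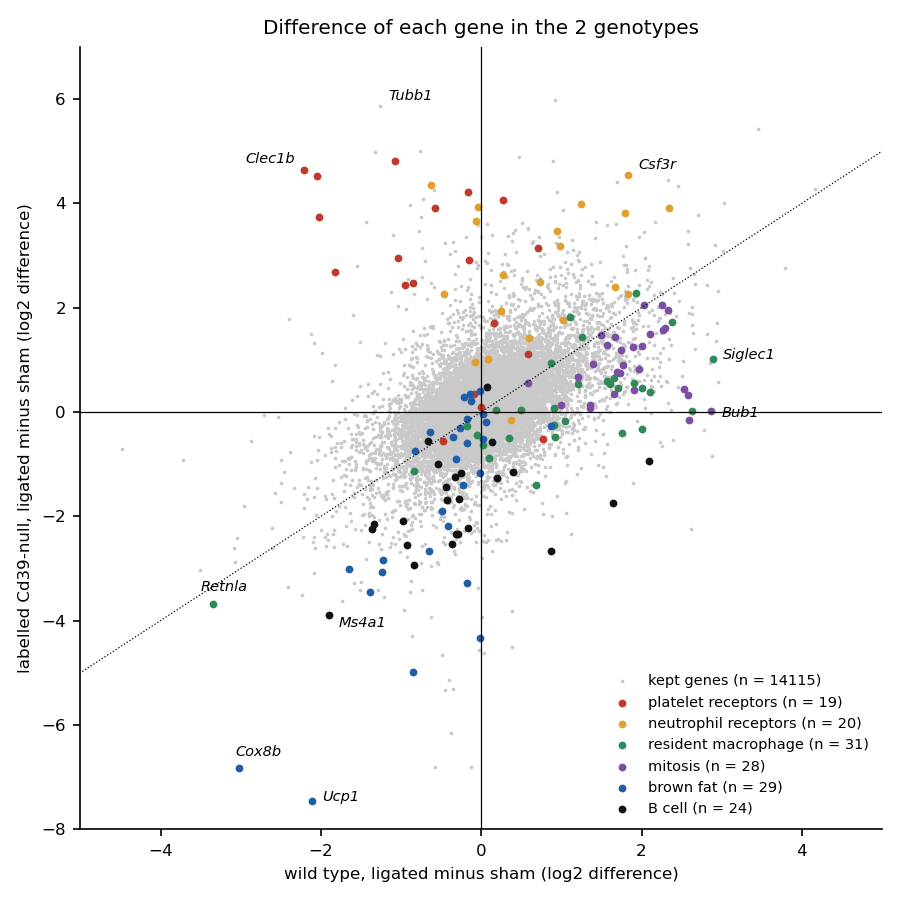
Log2 difference of ligated minus sham in the wild-type pair (horizontal) and in the Cd39-null pair (vertical) for the 14115 kept genes in grey, with members of 6 lists in colour and the line of equal differences dotted. The pairs share no array; most platelet receptors lie high and to the left, most mitosis and resident macrophage genes below the line on the right, and most B cell genes in the lower part, with Ucp1 and Cox8b lowest among the coloured points.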

How the data were processed

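Expression in the inferior vena cava was measured on a whole-transcript array in 4 pools of 4 mice each. From 50 ng of RNA, cDNA was amplified, and 3 µg of it was labelled and hybridised, per the labels' protocols. As deposited, each probe set has a log2 value from RMA, for which the submitters' processing notes name the oligo package without a version. RMA scales arrays towards a common distribution, so a global shift can be hidden. The deposited values were still not fully alike. The 95th percentile of olfactory receptor probe sets was 2.97 and 2.94 on the sham arrays of Cd39-null and wild type, against 2.68 and 2.66 on their ligated counterparts. Scanner files were not used here, and no depth applies to arrays.

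Of 35556 probe sets, 21218 had 1 symbol in the platform's annotation, 1881 several and 12457 none; 18790 of the 18820 genes matched a RefSeq table of GRCm38.p6 by Entrez identifier. For genes with several probe sets (1386), the brightest over the 4 arrays was used. Arrays were subtracted with no further scaling (pandas 2.3.3), after a check on simulated data. A total of 79 gene lists with 1901 entries was used, of which 1622 were kept. Alternatives were 2 other filters on dim genes, a floor at background, 2 other choices of probe set, and quantile or cyclic loess normalisation (limma 3.58.1, R 4.3.3).

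The genes named are the 30 highest and 30 lowest differences among genes above background on at least 1 Cd39-null array, the 12 highest and 12 lowest differences between the pairs, members of the lists taken from the largest difference downwards with members that go the other way, and Entpd1. Predicted, RIKEN, small RNA, receptor and antibody segment symbols were left out of the rankings. Members and lists were chosen with earlier results of these data known.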

Additional observations from a re-analysis of the deposited data

Results flagged for a closer look

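Of all 14115 kept genes, 25 were at least 2-fold higher in the Cd39-null pair and at least 2-fold lower in the wild-type pair. A further 13 were the reverse. The 1480 genes of the lists or of the largest differences, some named for their difference between the pairs, held 21 genes apart in opposite directions. Of these 21, 15 were higher and 6 lower in the Cd39-null pair. The difference between the pairs was not tested, since each group is 1 pooled array. The platelet genes among them were higher in the Cd39-null pair and lower in the wild-type pair, and the Cd39-null difference exceeded the wild-type one by 7.12 (log2) for Tubb1, 6.86 for Clec1b, 6.58 for Mpig6b, 6.31 for Alox12, 5.89 for Gp9, 5.76 for Gp5, 5.08 for Ppbp, 4.52 for Cd226, 4.18 for Mmrn1 and 3.98 for Slamf1. It did so too by 3.42 for the angiopoietin Angpt2, 3.40 for the stefin Stfa3, 2.52 for the phosphodiesterase Pde5a, 2.33 for the growth factor binding protein Igfbp3 and 2.16 for the guanylate cyclase subunit Gucy1b1. Others were lower in the Cd39-null pair and higher in the wild-type pair, by -2.32 for the succinyl-CoA ligase subunit Suclg1, -2.98 for the class II chain H2-Aa, -3.26 for the cyclin kinase inhibitor Cdkn2c, -3.39 for the invariant chain Cd74, -3.46 for the glycerol phosphate dehydrogenase Gpd1 and -4.87 for the chemokine Ccl8.

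Probe sets outside the gene comparison also differed between the Cd39-null arrays. Of 1881 probe sets with several gene symbols, 116 were at least 2-fold higher and above background on the array labelled Cd39-null, ligated, and 90 were at least 2-fold lower and above background in Cd39-null sham. Of 12457 probe sets with no symbol, 1140 were higher and 663 lower by the same limits. Among the 14115 kept genes, counted without the background limit, 1537 (10.9%) were higher and 818 (5.8%) lower. With no filter on dim genes, 1542 of 18820 genes were higher and 873 lower. The other probe sets passed no such filter but did have to pass the background limit, so their shares and those of the genes are not like for like.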

How the results depend on the processing

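The counts of genes at least 2-fold higher (1537) and lower (818) stayed within 1.5 times of these values under all 7 alternatives, from 1116 to 1542 higher and from 642 to 1056 lower, and the median over all genes lay between -0.08 and 0.18. Normalising again moved the balance most, to 1116 higher and 1056 lower by quantiles and 1174 and 1003 by cyclic loess. Of 79 list medians, 19 turned their sign under at least 1 alternative, 10 of them under a scaling. All but 2 of the 19 were within 0.26 of 0 as deposited and give no direction. The other two were at least 2-fold from 0: that of P2X and P2Y receptors was -0.0020 with no filter on dim genes, and that of plasma cell genes was 0.40 with the stricter filter, which leaves fewer genes in each list. Of the 20 lists with a median at least 2-fold from 0, 12 had one in every setting and 8 lost it in at least 1. Those 8 were the P2 receptor, plasma cell, TNF superfamily, colony stimulating factor, glycolysis, heme and iron, tricarboxylic acid cycle and autonomic neuron lists. Of 1480 single genes, 42 moved by more than 1.5-fold with the floor at background; 142 turned their sign under at least 1 alternative, none of them among the 613 that were at least 2-fold apart. No paired analysis was possible because each group is 1 pooled array. Leaving out an array ends the comparison. Values under background limit the size and order of differences for dim genes, and the array labelled Cd39-null, ligated rests on its label.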

Other observations

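Arachidonic acid genes of leukocytes were higher on the array labelled ligated. Of 23 prostaglandin and leukotriene genes, 9 were at least 2-fold higher and 1 lower, beside 10.9% higher and 5.8% lower over all genes. Alox5ap, which presents arachidonic acid to 5-lipoxygenase, was at 6.22 and 9.03 on the Cd39-null arrays and at 6.16 and 7.94 on the wild-type arrays, and the lipoxygenase Alox5 at 3.85 and 5.94, and at 3.55 and 4.86. Hpgd, which inactivates prostaglandins, was lower in both pairs (-1.49 and -1.02). The prostaglandin D synthase Hpgds was at 4.55 and 3.70 on the Cd39-null arrays, but at 3.26 and 6.14 on the wild-type arrays. Hdc, which makes histamine, was at 3.56 and 7.17, with 3.77 and 3.85 in wild type. Of 11 kept mast cell and eosinophil genes, Hdc among them, 2 were at least 2-fold higher and 2 lower. Their median was -0.25, with 4 above 0 and 7 below. The mast cell genes Cpa3 (-2.17) and Kit (1.13) went opposite ways.

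Clock genes were split, with 4 of 15 higher and 4 lower. Bhlhe40 and Nfil3 were higher by 1.48 and 1.47, and Bhlhe41, Hlf, Per3 and Tef were lower by 2.29, 1.54, 1.35 and 1.02, whereas the core genes Arntl (0.26), Clock (0.10) and Cry1 (0.01) were level. The labels do not give the hour of day at which tissue was taken. Among the highest genes that are in no list, Spatc1, a spermatogenesis and centriole associated gene, was at 3.45 and 8.35 on the Cd39-null arrays, with 3.15 and 3.62 in wild type, and Nrgn, neurogranin, was at 4.21 and 8.30, with 4.84 and 4.11.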
